A study of Mus musculus with 5 samples.

Results

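The Frizzled receptor family was examined in mRNA pulled down from mouse soleus myocytes. Its members were the probe sets whose single gene symbol in the array annotation is *Fzd1* to *Fzd10*, which gave 10 genes with 1 probe set each, out of 19505 genes measured. The family was chosen by its log2 signals on these same arrays, so the signals, their order and their calls are given as a description. The calls come from a fit over all genes that used these same signals, and they are no independent test of the family. RNA came from the left soleus of 5 sedentary mice of a single group (mice 1, 3, 11, 14 and 16), which carry Myogenin-Cre together with the floxed RiboTag allele Rpl22fl/fl-HA and are described as wt controls. Cre under the *Myog* promoter switches RPL22, a ribosomal protein, to an HA-tagged form in cells that have made myogenin, and anti-HA antibody then collects their ribosomes with the mRNA they carry. The RNA of each mouse went onto its own Affymetrix mouse Clariom S array. The labels give neither age nor sex, and the Methods state sexually mature male mice unless stated otherwise. No treated group, input RNA or Cre-negative pulldown was analysed here, so every value is a level within this single group.

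Frizzled proteins are serpentine receptors for Wnt, secreted lipid-modified glycoproteins that bind the cysteine-rich domain outside the cell. With the co-receptors LRP5 or LRP6 they stabilize beta-catenin through Dishevelled, and with other partners they act on cell polarity, the cytoskeleton or calcium. In skeletal muscle, Wnt signaling is known for roles in myogenesis, in satellite cells, the stem cells of muscle, and at the neuromuscular junction. By protein sequence the mouse receptors fall into subgroups, *Fzd9*, *Fzd10* and *Fzd4*, then *Fzd1*, *Fzd2* and *Fzd7*, then *Fzd5* and *Fzd8*, and finally *Fzd3* and *Fzd6*.

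Upstream sequence from RefSeq (GRCm38.p6) was used for 6 of the 10 genes. The 250 bases before the annotated start are shown for the 3 genes with the highest signals, *Fzd9*, *Fzd4* and *Fzd7*. They are also shown for *Fzd1*, whose mean signal was the lowest among the 6. Capitals mark matches to 3 short motifs, each searched on both strands with overlapping matches counted. The GC box, which SP1 and its relatives bind, was searched as GGGCGG. The box named for the letters CCAAT is bound by NF-Y. The E-box, which myogenic factors such as MyoD and myogenin bind among others, was searched as CANNTG.
*Fzd9* (chr5:135251048-135251297, minus strand): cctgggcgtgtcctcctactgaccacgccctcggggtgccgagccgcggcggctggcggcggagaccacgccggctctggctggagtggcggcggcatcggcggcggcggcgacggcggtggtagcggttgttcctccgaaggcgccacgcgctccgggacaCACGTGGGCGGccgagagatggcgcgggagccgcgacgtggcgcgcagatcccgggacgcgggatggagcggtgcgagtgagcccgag
*Fzd4* (chr7:89404116-89404365, plus strand): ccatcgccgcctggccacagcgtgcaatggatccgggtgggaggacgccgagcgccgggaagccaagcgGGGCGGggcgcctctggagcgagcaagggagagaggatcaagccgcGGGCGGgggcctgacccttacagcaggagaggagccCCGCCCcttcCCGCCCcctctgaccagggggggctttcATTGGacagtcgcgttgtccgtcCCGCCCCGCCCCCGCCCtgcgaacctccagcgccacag
*Fzd7* (chr1:59481897-59482146, plus strand): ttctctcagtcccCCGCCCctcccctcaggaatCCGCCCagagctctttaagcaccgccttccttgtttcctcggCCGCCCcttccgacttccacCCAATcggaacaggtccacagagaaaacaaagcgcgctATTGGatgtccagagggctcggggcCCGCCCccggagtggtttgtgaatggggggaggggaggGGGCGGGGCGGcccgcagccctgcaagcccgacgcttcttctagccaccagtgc
*Fzd1* (chr5:4758217-4758466, minus strand): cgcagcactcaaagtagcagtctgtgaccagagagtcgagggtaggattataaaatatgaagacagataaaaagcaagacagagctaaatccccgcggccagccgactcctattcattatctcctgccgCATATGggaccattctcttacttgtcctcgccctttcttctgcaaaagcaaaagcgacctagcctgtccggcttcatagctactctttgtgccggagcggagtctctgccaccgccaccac

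These sequences differed in base composition. G and C made up 76.4% of the bases upstream of *Fzd9*, 72.8% for *Fzd4*, 65.2% for *Fzd7* and 51.2% for *Fzd1*, where the median over 32851 RefSeq upstream sequences of the same length was 52.4%. The same share, 76.4%, was found upstream of *Fzd10* and of *Fzd5*. GC boxes numbered 7 for *Fzd4*, 6 for *Fzd7*, 9 for *Fzd5*, 1 for *Fzd9* and 1 for *Fzd10*, while 32.7% of all upstream sequences held at least 1. The sequence of *Fzd1* held none in this window, and instead held a TATA box (TATAAA, in 12.4% of all) and the letters CTTTGA of a TCF core (in 13.8% of all). An E-box was found upstream of *Fzd9*, where its last base is the first of the GC box, and of *Fzd10*, *Fzd5* and *Fzd1*, as in 66.2% of all sequences. CCAAT boxes numbered 2 for *Fzd7*, 1 for *Fzd4* and 1 for *Fzd5* (33.8% of all held at least 1). A match is only a run of letters and not a site of binding.

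The arrays were alike as a whole, with medians between 5.11 and 5.20 on the log2 scale over 22206 probe sets. The tagged gene *Rpl22* read 12.12 ± 0.53 and the driver gene *Myog* 7.12 ± 0.69 (SD, n = 5 each). Myofiber markers were called in 11 of 11 cases, with a median signal of 19.66. The Y-linked gene *Eif2s3y* was at 3.54 and 3.53 in mice 1 and 16 but at 10.42, 11.92 and 12.73 in mice 3, 11 and 14, so mice 1 and 16 did not read like males. The signals of 1091 odorant receptor genes, rarely transcribed outside the nose, stood for background, and the cutoff of an array was their 95th percentile (5.25 to 5.32). Calls above background needed a signal higher than the cutoff and, by limma, an adjusted p under 0.05 (Benjamini-Hochberg, 19505 genes). By this rule 43.5% of all genes were called. The share of odorant receptor genes called, 0.825%, is low by construction, since these genes set the cutoff. Of genes that did not set it, 1.57% of 319 vomeronasal receptor genes were called. Among 89 genes for keratin-associated proteins and beta-defensins the share was 6.74%.

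Of the 10 Frizzled genes, 7 were called above background (*Fzd9*, *Fzd4*, *Fzd7*, *Fzd10*, *Fzd5*, *Fzd8* and *Fzd6*), where the rule called 43.5% of all genes. The family was proposed with these signals known, so nothing is read from this count. The same 7 genes lay above the cutoff in each of the 5 mice, as did 42.5% of all genes. The same 7 were also called over mice 3, 11 and 14 alone. The median of the 10 mean signals was 6.52, against 5.16 over all genes. Each pulldown pools RNA over the tagged cells of a whole muscle, so fewer cells with a transcript and less of it per cell cannot be told apart.

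**Figure D1:**
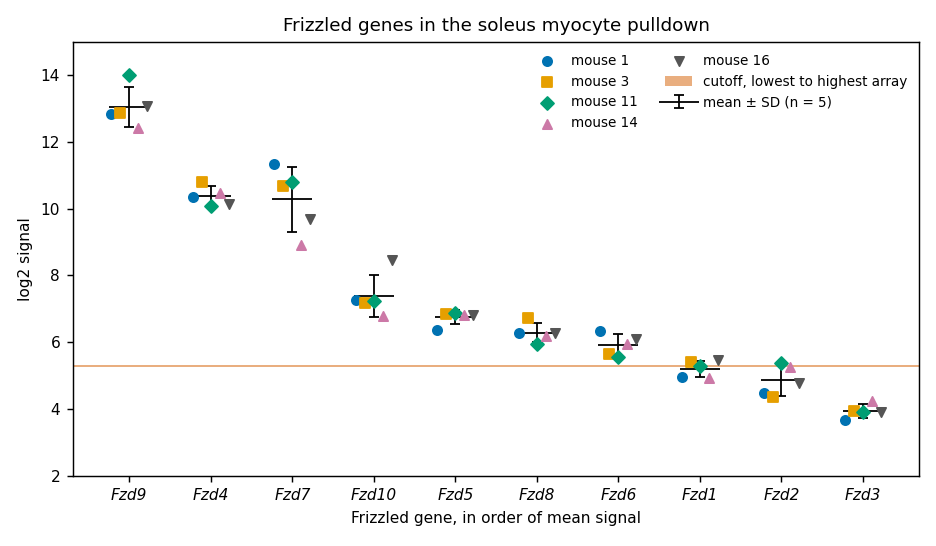
Log2 signal of each Frizzled gene (vertical axis) in each of 5 mice (symbols), with the mean and SD over mice in black and genes in order of mean signal. The band is the cutoff from odorant receptor genes, 5.25 to 5.32 over the arrays. Symbols of 7 genes all lie above it, those of *Fzd1* and *Fzd2* lie on both sides, and those of *Fzd3* all lie below.

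The highest signal of the family was that of *Fzd9*, whose subgroup also holds *Fzd4* and *Fzd10*. *Fzd9*, known in muscle cells for a part in clustering acetylcholine receptors, read 12.85, 12.86, 14.01, 12.40 and 13.09 in mice 1, 3, 11, 14 and 16. Mouse 11 was highest and mouse 14 lowest, which is a 3.04-fold range on the linear scale. The mean of 13.04 ± 0.59 (SD, n = 5) lay 7.76 log2 units above the cutoff, and 863 of all genes had a higher mean. In every mouse *Fzd9* was at or above the 94.0th percentile of all genes on the array.

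*Fzd4*, the receptor for norrin as well as for Wnt, read 10.36, 10.81, 10.09, 10.48 and 10.14 in those mice. The 5 mice lay within 0.72 log2 units (1.65-fold), with mouse 3 highest and mouse 11 lowest. Its mean was 10.38 ± 0.29 (SD, n = 5), 5.10 above the cutoff. In the GRCm38.p6 annotation the neighbouring gene *Tmem135* overlaps *Fzd4*. There the lncRNA gene *Gm26704* also overlaps *Fzd6*, and the pseudogenes *Gm9086* and *Gm52141* overlap *Fzd3*. Whether any probe lies in a shared stretch was not tested. *Fzd10* read 7.26, 7.17, 7.22 and 6.77 in mice 1, 3, 11 and 14, and 8.45 in mouse 16. Mouse 16 stood above the others, and without it the SD of *Fzd10* fell to 0.23, against 0.63 with all 5 mice, and its mean was 7.10, against 7.37.

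The subgroup of *Fzd7*, *Fzd1* and *Fzd2* spanned the range of the family. *Fzd7*, which binds WNT7A on satellite cells and myofibers, read 11.33, 10.68, 10.80, 8.90 and 9.69 in mice 1, 3, 11, 14 and 16. Mice 1, 3 and 11 were high, mouse 16 lower and mouse 14 lowest, a 5.41-fold range on the linear scale that was the widest of the 10 genes. The mean was 10.28 ± 0.98 (SD, n = 5), 5.00 above the cutoff. *Fzd1* read 4.97, 5.39, 5.29, 4.93 and 5.45 in mice 1, 3, 11, 14 and 16, close to the cutoff on either side and above it in 3 of 5 mice. Its mean of 5.21 ± 0.24 (SD, n = 5) exceeded those of 95.8% of odorant receptor genes. *Fzd2* read 4.49, 4.36, 5.38, 5.27 and 4.79 in the same mice and lay above the cutoff in mouse 11 alone. At 4.86 ± 0.46 (SD, n = 5) it exceeded 90.1% of odorant receptor genes.

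*Fzd5* and *Fzd8* had moderate signals that differed little between mice. *Fzd5*, needed for the development of the eye and of Paneth cells in mice, read 6.84, 6.89, 6.81 and 6.81 in mice 3, 11, 14 and 16 and 6.37 in mouse 1, so that mouse 1 lay apart below the rest. Its mean was 6.74 ± 0.21 and that of *Fzd8* was 6.29 ± 0.28 (SD, n = 5 each), at 1.47 and 1.01 above the cutoff. *Fzd8* ranged from 5.95 in mouse 11 to 6.72 in mouse 3. In the subgroup of *Fzd3* and *Fzd6*, known from mice for axon guidance and for the orientation of hairs, *Fzd6* was the member called. It read 6.34, 5.64, 5.57, 5.95 and 6.08 in mice 1, 3, 11, 14 and 16, with a mean of 5.92 ± 0.32 (SD, n = 5), 0.64 above the cutoff. It was the called member nearest to the cutoff, and its call was lost when the cutoff was the 99th percentile (distance 0.10) or came from genes for keratin-associated proteins and beta-defensins (distance 0.09). *Fzd3* read between 3.66 in mouse 1 and 4.24 in mouse 14 with a mean of 3.93 ± 0.20 (SD, n = 5). No mouse reached the cutoff, and 42.9% of odorant receptor genes had a lower mean.

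Signals of different probe sets carry the affinity of their probes, so the order of the means need not be the order of transcript abundance. In that order, from *Fzd9*, *Fzd4*, *Fzd7*, *Fzd10*, *Fzd5*, *Fzd8*, *Fzd6*, *Fzd1* and *Fzd2* down to *Fzd3*, the difference between some neighbours was larger than its SD over mice and that between others was not. *Fzd9* exceeded *Fzd4* by 2.66 ± 0.81 (SD of the difference within an array, n = 5), and *Fzd7* exceeded *Fzd10* by 2.91 ± 1.18, both in 5 of 5 mice and without overlap of their ranges. *Fzd6* read higher than *Fzd1*, and *Fzd2* higher than *Fzd3*, in 5 of 5 mice, but *Fzd1*, *Fzd2* and *Fzd3* were not called above background, so no size is given for these differences. *Fzd5* exceeded *Fzd8* by 0.46 ± 0.36 in 5 of 5 mice, although the ranges overlapped.

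For the remaining neighbours the difference was smaller than its SD. *Fzd4* and *Fzd7* differed by 0.10 ± 1.02, with *Fzd4* the higher in 3 of 5 mice, and they changed places when mouse 14 was left out. *Fzd10* and *Fzd5* differed by 0.63 ± 0.65, and *Fzd8* and *Fzd6* by 0.37 ± 0.43 (SD, n = 5 each). *Fzd1* and *Fzd2*, neither called above background, read in either order, with *Fzd1* the higher in 3 of 5 mice.

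The mice with the highest and the lowest signal differed between members. A difference between mice within 1 probe set compares the same probes. Its size can still depend on those probes, so sizes need not be comparable between genes. *Fzd9* was 0.97 above its own mean in mouse 11 and 0.64 below it in mouse 14, *Fzd7* was 1.05 above in mouse 1 and 1.38 below in mouse 14, and *Fzd10* was 1.08 above in mouse 16. Mouse 14 was the lowest for 4 of the 10 genes (*Fzd9*, *Fzd7*, *Fzd10* and *Fzd1*) and the highest for *Fzd3*. Mouse 11 was the highest for 3 genes (*Fzd9*, *Fzd5* and *Fzd2*) and the lowest for 3 others (*Fzd4*, *Fzd8* and *Fzd6*). The difference of *Fzd9* and *Fzd7* on the same array was 1.51, 2.17, 3.20, 3.51 and 3.40 in mice 1, 3, 11, 14 and 16. It was smallest in mouse 1 and largest in mouse 14.

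**Figure D2:**
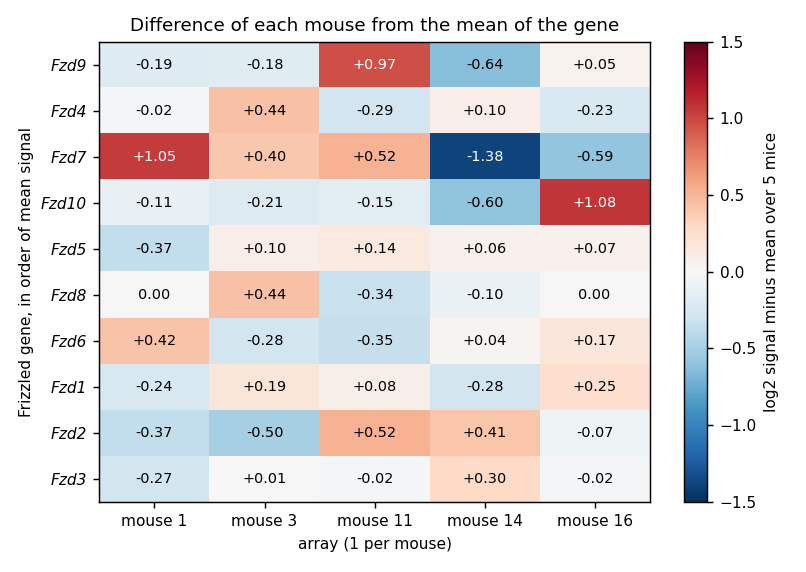
Difference of each mouse (columns) from the mean of the gene over 5 mice (log2 units, colour and printed value), with genes in order of mean signal. The strongest colours are those of *Fzd7* in mouse 14 (-1.38) and mouse 1 (1.05), of *Fzd10* in mouse 16 (1.08) and of *Fzd9* in mouse 11 (0.97), and they fall in different mice.

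Set beside called genes with a mean within 0.5 log2 units of theirs, *Fzd7* had a larger SD than 96.4% of 871 genes, *Fzd10* than 87.8% of 1349 and *Fzd9* than 87.3% of 379. The SD of *Fzd4* was larger than that of 29.9% of 862 such genes, that of *Fzd8* than 27.0% of 1675 and that of *Fzd5* than 10.3% of 1522. Over all called genes the median SD between mice was 0.36.

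For *Fzd9*, *Fzd7* and *Fzd10*, the called members whose SD exceeded that median, the called genes with the most similar differences between mice were sought, by the root mean square difference of signals centred on each gene's mean over the 5 mice. For *Fzd9* these were *Micall1* (0.10 log2 units), *Ssr2* (0.10) and *Pigu* (0.11), out of 8481 genes. *Micall1* read 8.12, 8.20, 9.07, 7.68 and 8.31 in mice 1, 3, 11, 14 and 16, which is the pattern of *Fzd9* at a lower signal. For *Fzd10* they were *Mrps24* (0.09), *Afap1l1* (0.10) and *Selenom* (0.12), each highest in mouse 16. The profile of *Fzd7* had no gene as near in log2 units, with *Cnksr1* at 0.20, *Myo18b* at 0.21 and *Slco5a1* at 0.26. This measure is not scaled to the SD, which was 0.98 for *Fzd7*, 0.59 for *Fzd9* and 0.63 for *Fzd10*, so closeness is not comparable between the 3 genes. *Cnksr1* read 12.61, 11.58, 12.28, 9.91 and 10.83 in the same mice, again lowest in mouse 14. Within 0.2 log2 units lay 36 genes for *Fzd9* and 34 for *Fzd10*, so with 5 mice such a match is common among this many genes.

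**Figure D3:**
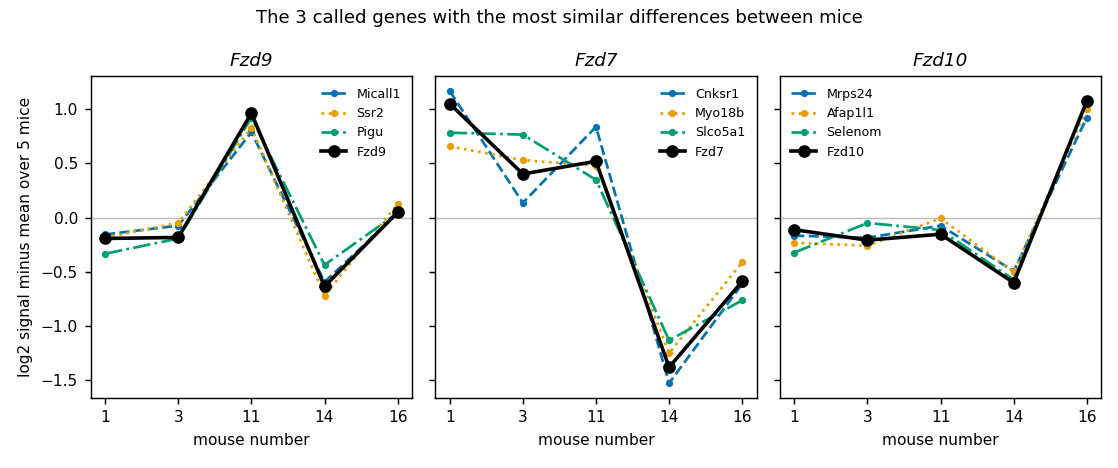
Log2 signal minus the mean over 5 mice (vertical axis) by mouse number (horizontal axis, whose order has no meaning) for *Fzd9*, *Fzd7* and *Fzd10* (black) and the 3 called genes nearest to each (coloured). The lines of *Fzd9* peak in mouse 11, those of *Fzd10* peak in mouse 16, and those of *Fzd7* dip in mouse 14. The genes nearest to *Fzd7* differ from it by 0.20 to 0.26 log2 units, not scaled to its larger SD.

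Markers of other cells were read on the same arrays, since Frizzled genes are also expressed outside myofibers. Of 8 satellite cell markers 3 were called (*Sdc4*, *Cdh15* and *Chodl*), while the defining marker *Pax7*, at 4.34 ± 0.27 (SD, n = 5), reached the cutoff in no mouse. The summed signal of this list, as log2, was 11.96, 12.16, 13.41, 11.26 and 11.68 in mice 1, 3, 11, 14 and 16, highest in mouse 11 and lowest in mouse 14, as was *Fzd9*. That order rests on *Sdc4*, which read 11.80, 12.07, 13.34, 10.98 and 11.46 and made up most of the sum. The mean log2 signal of the 8 markers was instead lowest in mouse 3 (5.80), with 6.02 in mouse 14, and *Cdh15* was lowest in mouse 3 as well (7.06). Of 10 endothelial markers 5 were called (*Cdh5*, *Kdr*, *Tek*, *Flt1* and *Pecam1*), with a summed signal between 9.02 in mouse 16 and 9.67 in mouse 14. Fibroblast markers were called in 6 of 6 cases, with a summed signal between 9.32 in mouse 11 and 10.89 in mouse 3. *Fzd4* and *Fzd8* were lowest and highest in the same mice. *Dcn*, the largest part of the sum (8.04 in mouse 11, 10.03 in mouse 3), and *Lum* had these extremes too. The other markers did not, as *Col1a1* and *Col1a2* were lowest in mouse 14, *Col3a1* was highest in mouse 1 and *Dpt* in mouse 14. Of 8 smooth muscle and pericyte markers 5 were called (*Abcc9*, *Rgs5*, *Acta2*, *Cspg4* and *Pdgfrb*), while *Myh11*, *Kcnj8* and *Notch3* were not. The sum of the 8 lay between 12.79 in mouse 1 and 12.93 in mouse 3. *Abcc9* alone made up most of it, at 12.42 in mouse 1 to 12.65 in mouse 16. Schwann cell markers were called in 2 of 4 cases (*Pmp22* and *Mbp*), while *Sox10* and *S100b* reached the cutoff in no mouse. The sum of this list was highest in mouse 11 (11.87), as was *Fzd9*, but lowest in mouse 1 (10.44). *Pmp22* made up most of it, at 10.22 in mouse 14 to 11.77 in mouse 11. Of 5 adipocyte markers 2 were called (*Fabp4* and *Cidec*), while *Adipoq*, *Plin1* and *Lep* were not. Their sum lay between 9.99 in mouse 11 and 11.63 in mouse 14, most of it from *Fabp4* (9.70 and 11.55 in those mice). Of immune cell markers 1 of 6 was called (sum 7.34 in mouse 14 to 8.10 in mouse 16), and of tendon markers 2 of 4 (7.35 in mouse 14 to 8.40 in mouse 1). Such sums carry the affinity of their probes, so they were not set against the level of any Frizzled gene. Whether each marker signal came from the cell type it is listed for, rather than from myofibers or another cell type, was not tested. The part of these cells in the Frizzled signals was not tested either.

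The rest of the Wnt pathway was read from lists of its genes. Outside the Frizzled family, 49 of 108 measured genes were called above background (45.4%, against 43.5% of all genes), with a median signal of 5.34. *Ctnnb1*, *Dvl2*, *Rnf43*, *Tcf7* and *Ccnd1* were not analysed here. The share differed between lists, from 10.5% of the Wnt ligands to 82.4% of the beta-catenin destruction complex among lists of more than 2 genes.

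**Figure D4:**
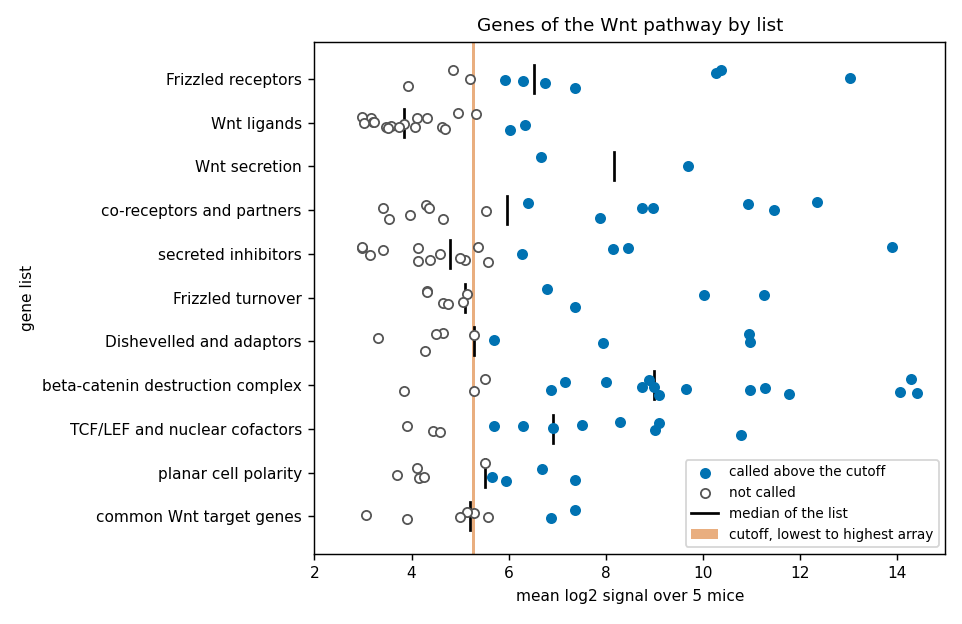
Mean log2 signal over 5 mice (horizontal axis) of each measured gene in 11 lists of the Wnt pathway, filled where called above the cutoff by limma and open where not, with the median of each list as a bar and the cutoff as a band. Most Wnt ligands lie left of the band (median 3.85) and most genes of the destruction complex right of it (median 9.00).

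Of the 19 Wnt ligand genes, 2 were called. *Wnt5b* had 6.33 ± 0.51, or 1.05 ± 0.19 (SE) over the cutoff (limma, adjusted p = 0.000257), and *Wnt5a* had 6.03 ± 0.39, or 0.75 ± 0.17 (SE) over it (limma, adjusted p = 0.00129). The errors of the means are SDs over 5 mice. Both encode ligands best known for signaling without beta-catenin. For 15 of the 19, *Wnt7a* (3.74 ± 0.12), *Wnt4* (3.85 ± 0.31) and *Wnt11* (4.63 ± 0.40) among them, the signal was below the cutoff in every mouse (SD, n = 5 each), as it was for 43.3% of all genes. Both genes of Wnt secretion were called. *Wls*, which carries Wnt proteins to the cell surface, had 9.70 ± 0.64 and *Porcn*, the acyltransferase that lipidates them, 6.66 ± 0.52 (SD, n = 5 each, adjusted p = 2e-09 and 2.14e-05 from limma).

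Among co-receptors and partners, 7 of 14 genes were called. The highest was *Ryk*, an atypical Wnt receptor kinase, at 12.36 ± 0.11, followed by *Musk*, the kinase of the neuromuscular junction whose ectodomain holds a Frizzled-like cysteine-rich domain, at 11.47 ± 0.63 (SD, n = 5 each). The heparan sulfate proteoglycan gene *Gpc4* had 10.93 ± 0.48, and the LRP co-receptor genes had 8.97 ± 0.53 for *Lrp6* and 7.88 ± 0.23 for *Lrp5* (SD, n = 5 each, adjusted p = 3.62e-09 and 5.08e-09 from limma). *Musk* was highest in mouse 11 (12.16), as was *Fzd9*, but lowest in mouse 16 (10.52), where *Fzd9* was near its mean. Of the genes known to work with *Fzd4* at vessels, *Tspan12*, a tetraspanin of the norrin receptor, had 8.75 ± 0.77 (adjusted p = 6.65e-08 from limma) and *Adgra2* 6.39 ± 0.33 (adjusted p = 3.23e-05 from limma; SD, n = 5 each). *Reck*, the partner of *Adgra2*, had 4.37 ± 0.41 and the norrin gene *Ndp* 4.66 ± 0.52 (SD, n = 5 each), and neither was called above background. *Smo*, the Frizzled relative of Hedgehog signaling, had 5.54 ± 0.08 (SD, n = 5) and lay above the cutoff in 5 of 5 mice, but was not called (adjusted p = 0.0768 from limma). The Wnt receptor kinases *Ror1* at 4.30 ± 0.14 and *Ror2* at 3.41 ± 0.20 (SD, n = 5 each) reached the cutoff in no mouse.

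Genes that set the amount of Frizzled protein at the membrane were called in 4 of 10 cases. *Znrf3*, a ubiquitin ligase that removes Frizzled receptors, had 7.37 ± 0.28 (adjusted p = 8.86e-08 from limma). *Lgr4* and *Rspo3*, receptor and ligand of the R-spondin system that restrains this ligase, had 11.26 ± 0.07 and 10.02 ± 0.71 (SD, n = 5 each). *Shisa2*, of a family that holds Frizzled in the endoplasmic reticulum, had 6.78 ± 0.50 (SD, n = 5, adjusted p = 1.12e-05 from limma). *Lgr5* at 5.14 ± 0.32 was not called, and *Lgr6* at 4.32 ± 0.39 was under it in all 5 mice (SD, n = 5 each).

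Of the secreted inhibitors and their receptors 4 of 16 were called. *Kremen1*, a receptor for Dickkopf proteins, had 13.89 ± 0.42, *Dkk2* had 8.47 ± 0.82, and the secreted Frizzled-related genes *Frzb* and *Sfrp2* had 8.14 ± 0.97 and 6.27 ± 0.33 (SD, n = 5 each, adjusted p for *Frzb* = 1.96e-06 from limma). *Frzb* was lowest in mouse 11 (6.96) and highest in mouse 3 (9.22), the same mice as for *Fzd4* and *Fzd8*.

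Inside the cell, 4 of 9 genes of Dishevelled and its adaptors were called, among them *Dvl1* at 10.98 ± 0.42 and *Dvl3* at 10.95 ± 0.26 (SD, n = 5 each). The formin genes *Daam1* and *Daam2*, which act downstream of Dishevelled, had 7.94 ± 0.66 and 5.70 ± 0.25 (SD, n = 5 each, adjusted p for *Daam2* = 0.0169 from limma). Of the destruction complex, 14 of 17 were called, led by the tankyrase gene *Tnks2* at 14.42 ± 0.13, *Gsk3b* at 14.28 ± 0.19 and *Csnk1a1* at 14.06 ± 0.53 (SD, n = 5 each), all kept for many uses besides Wnt signaling. Of TCF/LEF factors and nuclear cofactors 8 of 11 were called, led by *Tle4* at 10.79 ± 0.34, *Tle1* at 9.09 ± 0.73 and *Bcl9l* at 9.02 ± 0.58 (SD, n = 5 each). Planar cell polarity genes were called in 4 of 9 cases, with *Scrib* at 7.36 ± 0.21, *Celsr3* at 6.68 ± 0.36 and *Prickle2* at 5.94 ± 0.49 (SD, n = 5 each). Of 8 common target genes of beta-catenin signaling 2 were called, *Znrf3* and *Axin2*, of which *Axin2*, a feedback scaffold of the complex, had 6.86 ± 0.32 (SD, n = 5, adjusted p = 1.51e-06 from limma).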

How the data were processed

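RNA from anti-HA pulldowns of the left soleus of 5 mice was measured on Affymetrix mouse Clariom S arrays, 1 per mouse. The authors processed the intensities with Transcriptome Analysis Console 4.0 in its default configuration and deposited a log2 signal per probe set. The summarization algorithm is not given in the sources used here, nor is the build of the genome. Of 22206 probe sets, 19572 had 1 gene symbol, 0 several and 2634 none in the platform annotation. The 55 genes with several probe sets were given their mean, and no further normalization was applied.

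On each array the cutoff (95th percentile, 1091 odorant receptor genes) was subtracted, and limma 3.58.1 under R 4.3.3 asked whether the mean distance differed from 0 (two-sided, Benjamini-Hochberg, 19505 genes), a fit also checked on data made with known distances. The Frizzled genes and all gene lists were chosen with earlier results of these data known. The p-values cover only the spread between 5 mice of 1 group. Depth does not apply to arrays, and having only 5 of them limits precision.

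Named genes are all Frizzled genes, the 3 called genes with the highest mean in each pathway list, any gene of the co-receptor, turnover and Dishevelled lists, and the 3 nearest profiles of each called Frizzled gene whose SD is above the median SD of called genes. A few further genes, among them *Wnt4*, *Wnt7a*, *Wnt11*, *Sfrp2* and the markers, were named after their values were seen. Alternatives were other background sets and percentiles, a trended prior, renewed quantile normalization, percentile ranks, the brightest probe set per gene, leaving out low genes, a rule without a model and left-out mice. Protein sequences were not used here. Tables were made with Python 3.11.15 and pandas 2.3.3.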

Additional observations from a re-analysis of the deposited data

Results flagged for a closer look

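Among 60 named genes, 2 had a single mouse set off from the rest, with a Dixon ratio (gap to the nearest value over the range) above the critical 0.71, where chance gives about 3 (1 in 20). *Fzd5* had a ratio of 0.84, with mouse 1 at 6.37 below the other mice at 6.81 to 6.89. *Celsr3*, of the planar cell polarity list, had a ratio of 0.73, with mouse 1 at 7.31 above the others at 6.45 to 6.68. The ratio of *Fzd10*, with mouse 16 at the top, was 0.7085 and stayed under the critical value.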

How the results depend on the processing

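The number of Frizzled genes called above background was 7 under most alternatives, 6 at the 99th percentile of odorant receptor genes and 6 with keratin-associated proteins and beta-defensins as background (both without *Fzd6*), and 9 at the 50th percentile, where *Fzd1* and *Fzd2* were added. Leaving out each mouse in turn gave 7 throughout, 46 to 50 Wnt pathway genes and 8353 to 8390 of all genes. The number over all genes was 12814 at the 50th percentile, a cutoff that lies within background by construction. Wnt pathway genes called ranged from 44 to 72. The distance of *Fzd1* from the cutoff, -0.07, was 1.18 at the 50th, 0.21 at the 90th and -0.61 at the 99th percentile, -0.30 with vomeronasal receptor genes and -0.62 with keratin-associated proteins and beta-defensins as background, and between -0.14 and 0.0010 with a mouse left out. That of *Fzd2*, -0.42, was 0.82 at the 50th percentile and at its lowest -0.98 with keratin-associated proteins and beta-defensins. The median of the Frizzled means lay between 6.45 and 6.57 under every alternative run, and *Fzd4* and *Fzd7* changed places without mouse 14. The identity of Frizzled proteins, planned as a description, was not run. No paired analysis was possible because the design holds a single group.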
